A study of Homo sapiens with 6 samples.

Results

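Imprinted genes are genes used from the copy inherited from a single parent. They were followed in cardiomyocytes grown from WTC11, an established human induced pluripotent stem cell line. The members were chosen by name, as a list of 37 known imprinted genes. Of these, 30 had a row among the 35793 genes of the deposited table, and H19, KCNQ1OT1, MEG3, MEG8, HYMAI, NDN and MAGEL2 were not analysed here. Cells were either unedited WTC11 (wild type) or a line derived from it with a homozygous CRISPR/Cas9 knockout of STK25, a serine/threonine kinase. On day 15 after differentiation began 3 biological replicates of each genotype were collected, with no other treatment labelled. The knockout was 1 line, so the edit and any other difference between the lines cannot be told apart. The values are not allele-resolved, so they show how much RNA a gene gave and not which parental copy gave it.

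Imprinting is set by DNA methylation laid down in the egg or the sperm at control regions and kept through later cell divisions. The marked regions silence a gene on the maternal or the paternal chromosome, often several genes in a cluster together. Many imprinted genes act on growth, on the placenta and on stem and progenitor cells, and several, such as IGF2, H19 and CDKN1C, are active in the developing heart.

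The promoters below are those of called members for which a sequence was available, NAP1L5 and L3MBTL1, and the window shared by SNRPN and SNURF, SNRPN being the paternally expressed member with the highest level per kilobase. Each is 300 bases long, from 250 bases before to 50 after the annotated start, taken from RefSeq on GRCh38.p14. Capitals mark TGCCGC on either strand, printed as TGCCGC or GCGGCA, the letters that the imprint-keeping protein ZFP57 binds when methylated. NAP1L5 lies at chr4:88697780-88698079 on the minus strand, L3MBTL1 at chr20:43507447-43507746 and SNRPN with SNURF at chr15:24954737-24955036, both on the plus strand.
NAP1L5: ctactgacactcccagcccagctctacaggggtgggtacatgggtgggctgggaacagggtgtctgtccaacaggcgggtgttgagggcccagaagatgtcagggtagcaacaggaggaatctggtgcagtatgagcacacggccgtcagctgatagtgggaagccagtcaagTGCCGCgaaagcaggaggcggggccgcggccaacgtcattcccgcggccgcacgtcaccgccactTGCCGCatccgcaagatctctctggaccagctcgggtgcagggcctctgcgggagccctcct
L3MBTL1: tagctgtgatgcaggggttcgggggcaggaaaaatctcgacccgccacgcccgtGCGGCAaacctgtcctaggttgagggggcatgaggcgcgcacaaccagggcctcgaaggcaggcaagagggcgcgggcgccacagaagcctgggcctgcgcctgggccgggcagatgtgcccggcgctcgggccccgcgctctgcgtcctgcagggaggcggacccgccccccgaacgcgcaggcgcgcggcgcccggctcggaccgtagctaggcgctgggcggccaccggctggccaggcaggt
SNRPN and SNURF: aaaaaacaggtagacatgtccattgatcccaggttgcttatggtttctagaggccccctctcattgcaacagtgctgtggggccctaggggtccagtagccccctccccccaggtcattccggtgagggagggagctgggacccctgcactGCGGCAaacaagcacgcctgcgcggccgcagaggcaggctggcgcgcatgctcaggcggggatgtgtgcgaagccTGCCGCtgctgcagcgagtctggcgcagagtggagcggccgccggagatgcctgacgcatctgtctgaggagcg

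The NAP1L5 and SNRPN windows each held 18 CpG pairs and 2 copies of the motif, and the L3MBTL1 window held 35 CpG pairs and 1 copy. The other 3 SNRPN windows held 11, 7 and 2 CpG pairs, with 1, 0 and 0 copies. A second L3MBTL1 start, at chr20:43514191-43514490, had 9 CpG pairs and 0 copies and is not printed. Which L3MBTL1 start lies in an imprinted region was not tested. RefSeq windows were matched for 20 of the 30 members, 47 windows in all because several members have more than 1 start. CDKN1C, DLK1, IGF2, NNAT, PEG10, PEG3, PHLDA2, SGCE, SLC22A18 and ZIM2 were not matched. The motif occurred in 18 of these 47 windows (38.3%) and in 16.7% of 35116 promoter windows of the same length over all genes. The median number of CpG pairs was 18 in the members' windows and 14 in all windows. Windows of 1 gene can overlap, and SNRPN and SNURF share theirs, so these shares are a description of the sequences alone.

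The libraries held from 22443904 to 53224112 reads assigned to genes, recovered from the deposited normalized counts, a 2.37-fold range. STK25 checked the labels, with 6774 to 8874 normalized counts in the wild type and 3434 to 3906 in the knockout. On the first principal component the genotypes lay apart. On the second, which carried 24.1% of the variance, wild-type replicate 2 and knockout replicate 1 lay apart from the other 4 libraries. Cardiomyocyte markers such as TNNT2 and MYH6 were present in every library, with summed wild-type values of 1182435 to 1508173 and knockout values of 1723747 to 3208524. Of the 8 markers 4 had positive and 4 negative log2 fold changes, and MYL7 (541523 ± 171844 and 1481018 ± 756946; SD, n = 3 each) made up much of the sums. The 1 called marker, the cardiac transcription factor NKX2-5, was lower, at 21091 ± 2088 and 6444 ± 498 (SD, n = 3 each; limma adjusted p = 0.00135). Bulk RNA cannot tell fewer cells of a type from less RNA per cell, which applies to every value below.

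A gene was tested when its mean over the 6 libraries was at least 10 normalized counts, and called when its adjusted p was under 0.05 (limma on log2(value + 1), Benjamini-Hochberg over 15536 genes). Of the 30 members 24 were tested and 3 were called, PEG10, L3MBTL1 and NAP1L5, all lower in the knockout. All 3 are expressed from the paternal copy, as are 14 of the 24 tested members. The 3 called are 12.5% of the tested members, beside 12.8% of all genes tested and 6.79% called lower. No member was called higher, where 5.97% of all genes were. The median log2 fold change was -0.30 over the 24 members and 0.01 over all genes tested. In 7 members (29.2%) the genotypes did not overlap, beside 33.4% of all genes. Both shares were near those of all genes tested. DESeq2 called 7 members, 4 higher (IGF2, SLC22A18, SNRPN and BLCAP) and the same 3 lower, beside 20.7% of all genes, and a fit with the replicate number as a block called 1, beside 5.14%.

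**Figure D1:**
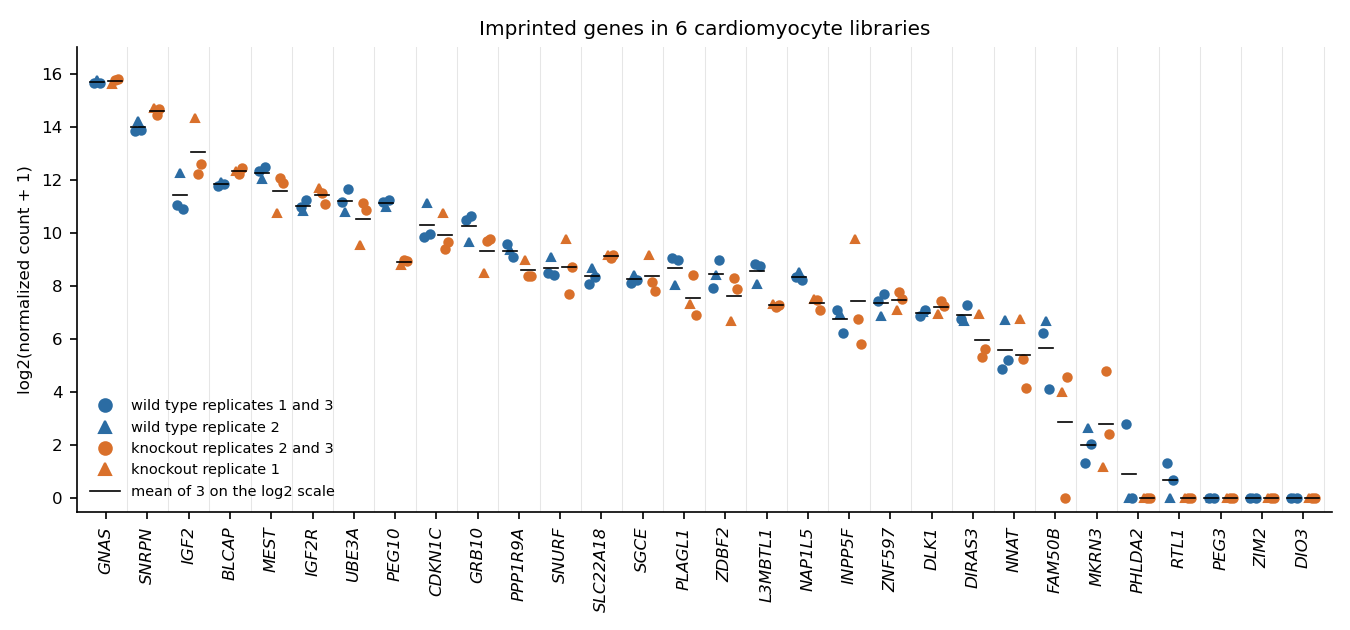
Values of the 30 imprinted genes with a row, as log2(normalized count + 1), ordered by mean; each point is 1 library, blue for wild type and orange for knockout, triangles mark wild-type replicate 2 and knockout replicate 1, and bars are the mean of 3. GNAS is highest and even across libraries, the PEG10 libraries of the 2 genotypes lie apart, and PEG3, ZIM2 and DIO3 are at 0 throughout.

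By the parental copy that is known to be expressed, 14 tested members were paternal, with a median log2 fold change of -0.77. Of these 9 were negative and 5 positive. Called were 3 (21.4%), all lower, beside 12.8% of all genes called and 6.79% called lower. In 28.6% of the 14 the genotypes did not overlap, beside 33.4% of all genes. The 3 tested maternal members, CDKN1C, SLC22A18 and ZNF597, had a median of 0.12 and 0 called. The 7 members whose allelic use depends on isoform or tissue, GNAS, UBE3A, GRB10, IGF2R, BLCAP, PPP1R9A and INPP5F, had a median of 0.03 and 0 called. The maternal class is small, and the difference between these classes was not tested.

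**Figure D2:**
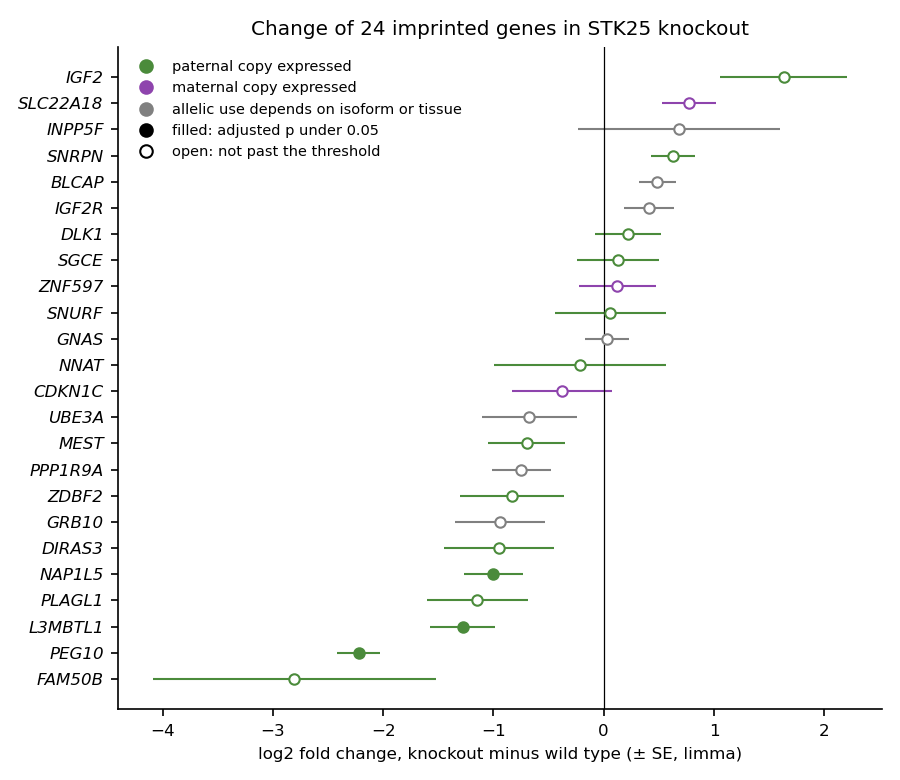
Log2 fold change of each of the 24 tested members, knockout minus wild type, with its SE from limma; colour gives the parental copy known to be expressed and filled points have an adjusted p under 0.05. PEG10, L3MBTL1 and NAP1L5 are filled, at -2.22, -1.28 and -1.0, and FAM50B, furthest left at -2.81, has an SE of 1.3 and is open.

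Among the growth regulators on chromosome 11, IGF2, the fetal growth factor expressed from the paternal copy, varied widely. It had 2142, 4912 and 1923 normalized counts in wild-type replicates 1 to 3 and 20432, 4810 and 6121 in knockout replicates 1 to 3. Knockout replicate 1 was far above the rest, and wild-type replicate 2 lay above knockout replicate 2, so the genotypes overlapped. The log2 fold change was 1.63 (SE 0.58) with a limma adjusted p of 0.111, although DESeq2 on the recovered reads gave 0.0146 after adjustment. Without knockout replicate 1 the log2 fold change was 0.99 (limma adjusted p = 0.154), and over the 6 fits without 1 library it ran from 0.99 to 2.06. When wild-type replicate 2 and knockout replicate 1 were both left out it was 1.42 (limma adjusted p = 0.000400), a comparison of 2 against 2 libraries chosen after the values were seen. CDKN1C, a cyclin-dependent kinase inhibitor expressed from the maternal copy, had 930, 2234 and 987 in the wild type and 1712, 677 and 806 in the knockout. Like IGF2 it was highest in wild-type replicate 2 and knockout replicate 1 of their genotypes, and the genotypes overlapped (log2 fold change -0.38, SE 0.45, limma adjusted p = 0.651). SLC22A18, a maternally expressed organic cation transporter-like gene, had 272, 404 and 325 in the wild type and 581, 537 and 576 in the knockout. Its 3 knockout libraries lay above all wild-type ones, a 1.69-fold difference in means that missed the threshold (log2 fold change 0.77, SE 0.24, limma adjusted p = 0.0777; DESeq2 adjusted p = 0.0204). PHLDA2, a maternally expressed gene that restrains placental growth, had 4 reads in wild-type replicate 1 and 0 in the other 5 libraries.

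Other members that act on growth did not pass. IGF2R, the receptor that clears IGF2 to the lysosome, had means of 2082 ± 327 in the wild type and 2795 ± 568 in the knockout (SD, n = 3 each; limma adjusted p = 0.287). GRB10, an adaptor that dampens insulin and IGF receptor signalling, had means of 1273 ± 417 and 684 ± 281 (SD, n = 3 each; limma adjusted p = 0.186). It was lowest in wild-type replicate 2 and knockout replicate 1, at 801 and 361. PLAGL1, a paternally expressed zinc finger factor that restrains proliferation, had 524, 264 and 508 in the wild type and 160, 337 and 119 in the knockout. Knockout replicate 2 reached above wild-type replicate 2, and the log2 fold change of -1.15 (SE 0.46) had a limma adjusted p of 0.149.

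Of 20 other genes of the IGF axis (receptors, substrates, binding proteins and regulators of IGF2) 16 were tested and 6 called, of which 2 rose and 4 fell (37.5%, beside 12.8% of all genes), with a median log2 fold change of -0.69. The list was chosen with earlier results of these data known, so this share describes these genes alone. The calls fell among the IGF binding proteins, which hold IGFs in the extracellular space, and PAPPA, a protease that cleaves some of them. IGFBP5 fell from 4215 ± 1121 to 585 ± 112 normalized counts (SD, n = 3 each; limma adjusted p = 0.000696). IGFBP2, IGFBP6 and IGFBP7 also fell, by 1.16, 1.25 and 1.14 on the log2 scale (limma adjusted p = 0.0119, 0.0471 and 0.0478). IGFBP3 and PAPPA rose by 0.88 and 2.02 on the log2 scale (limma adjusted p = 0.0158 and 0.0400). The receptors IGF1R and INSR and the IGF2 mRNA-binding proteins IGF2BP1, IGF2BP2 and IGF2BP3 did not pass, with limma adjusted p-values from 0.311 to 0.868.

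The largest change among called members was in PEG10 (ENSG00000242265.5, chromosome 7, 94656325 to 94669695, plus strand, in GENCODE 29 on GRCh38). PEG10 is a paternally expressed, retrotransposon-derived gene that makes a capsid-like protein and is needed in the placenta. It had 2297, 1999 and 2428 normalized counts in the wild type and 441, 504 and 492 in the knockout. Every knockout library lay far below every wild-type one, and the spread within each genotype was small. The mean fell from 2242 ± 220 to 479 ± 33.4 (SD, n = 3 each), to 21.4% of the wild type. The log2 fold change was -2.22 (SE 0.19) with a limma adjusted p of 0.000562, and edgeR's quasi-likelihood test on recovered reads gave -2.24 with an adjusted p of 0.000651. PEG10 was called in all 19 alternative fits tried, with log2 fold changes from -2.50 to -2.16. An exact two-sided permutation test of its 3 against 3 values gave p = 0.1, the smallest that this design allows.

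SGCE, which encodes epsilon-sarcoglycan of the dystrophin complex, lies head to head with PEG10, with annotated gene ends that overlap, and is expressed from the same paternal copy. It did not follow PEG10. Its values were 276, 340 and 297 in the wild type and 576, 281 and 225 in the knockout. The knockout libraries fell on both sides of the wild-type ones, with knockout replicate 1 highest (log2 fold change 0.13, SE 0.37, limma adjusted p = 0.871). The ratio of PEG10 to SGCE was 8.31, 5.89 and 8.18 in the wild type and 0.766, 1.79 and 2.2 in the knockout. It did not overlap between genotypes, with a log2 difference of -2.35 (exact two-sided permutation p = 0.1, the smallest possible, and 0.2 adjusted over the 2 ratios that could be computed). PPP1R9A, an actin-binding protein further along the cluster, had 758, 647 and 549 in the wild type and 510, 335 and 331 in the knockout. All 3 knockout values lay below the wild-type ones, without passing the threshold (log2 fold change -0.75, SE 0.27, limma adjusted p = 0.114). TFPI2, a protease inhibitor of the same cluster that is no member of the list, fell with a log2 fold change of -1.26 (SE 0.33, limma adjusted p = 0.0446).

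Of the 16 other genes tested within 2 Mb of PEG10, 4 were called and all 4 were lower, where 12.8% of all genes were called and 6.79% called lower. These were TFPI2, listed as imprinted, and GNG11, COL1A2 and PON2, which are not. COL1A2, a chain of type I collagen and a marker of fibroblasts, had a log2 fold change of -5.01 (SE 0.44, limma adjusted p = 0.000616). CASD1, which lies between COL1A2 and SGCE, did not pass (log2 fold change -0.45, SE 0.32, limma adjusted p = 0.429). Over the 16 the median was -0.03, with 9 negative and 7 positive values. MEST, a paternally expressed hydrolase-like gene further out on the long arm, had 5096, 4137 and 5718 in the wild type and 1717, 4339 and 3778 in the knockout. Its genotypes overlapped, with knockout replicate 1 lowest (log2 fold change -0.70, SE 0.35, limma adjusted p = 0.249).

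**Figure D3:**
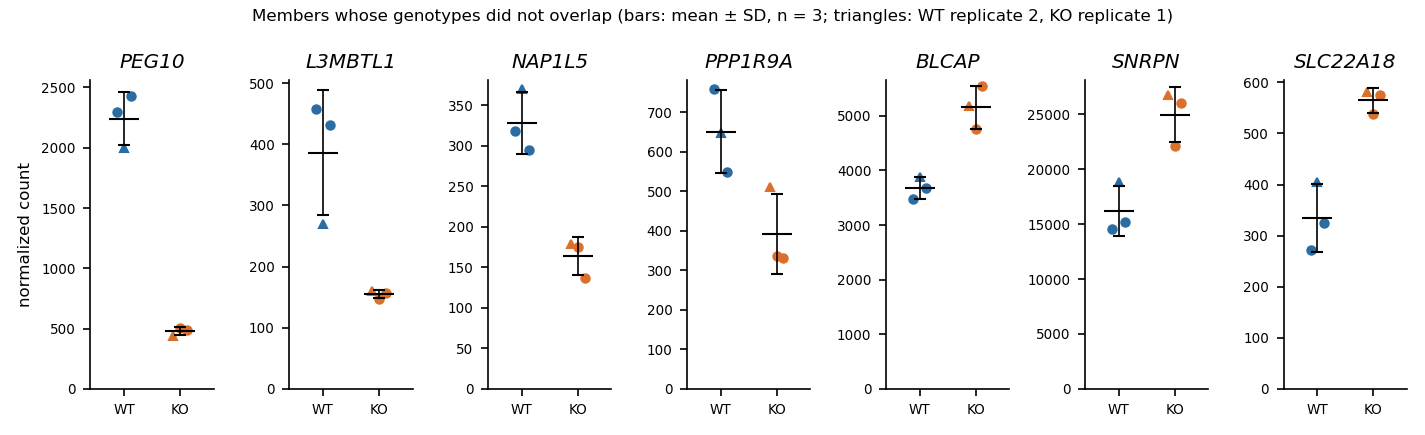
Normalized counts of the 7 members whose genotypes did not overlap, each axis starting at 0; points are libraries, triangles mark wild-type replicate 2 and knockout replicate 1, and bars are the mean ± SD of 3. PEG10, L3MBTL1, NAP1L5 and PPP1R9A are lower in the knockout, and BLCAP, SNRPN and SLC22A18 are higher; only the first 3 were called.

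L3MBTL1 (ENSG00000185513.16, chromosome 20, 43489442 to 43550950, plus strand), a paternally expressed chromatin-compacting protein with 1 of its promoter windows printed above, was also called. It had 458, 270 and 431 normalized counts in the wild type and 160, 147 and 156 in the knockout. The knockout libraries were close to each other and all below wild-type replicate 2, the lowest of the wild type. The mean fell from 386 ± 102 to 155 ± 6.71 (n = 3 each, ± SD). The log2 fold change was -1.28 (SE 0.30, limma adjusted p = 0.0291). Leaving out wild-type replicate 1 or 3 ended the call (limma adjusted p = 0.141 and 0.120), as did leaving out knockout replicate 2 or 3 (limma adjusted p = 0.0811 and 0.0907). Its nearest tested neighbour on each side was also called lower. SRSF6, a splicing factor on the proximal side, had a log2 fold change of -0.90 (SE 0.18, limma adjusted p = 0.0179), and IFT52, an intraflagellar transport protein on the distal side, -1.01 (SE 0.27, limma adjusted p = 0.0492). The next tested genes out, CHD6 and MYBL2, did not pass (limma adjusted p = 0.801 and 0.346).

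BLCAP and NNAT share a locus on the same chromosome, where NNAT, a paternally expressed proteolipid, lies within BLCAP on the opposite strand. Reads from the overlap could have been assigned to either. BLCAP had 3473, 3872 and 3679 in the wild type and 5179, 4753 and 5540 in the knockout. It was higher in every knockout library by a small margin, a 1.40-fold difference in means (log2 fold change 0.49, SE 0.17, limma adjusted p = 0.106; DESeq2 adjusted p = 0.0302). NNAT was low, with 28.7, 105 and 35.7 in the wild type and 108, 36.8 and 16.9 in the knockout. Its high values were in wild-type replicate 2 and knockout replicate 1, and the genotypes overlapped (limma adjusted p = 0.898). GNAS, which encodes the stimulatory G protein subunit upstream of cAMP, had 51130, 54938 and 51805 in the wild type and 50036, 54903 and 56363 in the knockout. These 6 values lay within a narrow range, with a log2 fold change of 0.03 (SE 0.20, limma adjusted p = 0.949), which turned to -0.25 under equal totals and to -0.37 under quantile normalization. Per kilobase of longest annotated transcript GNAS was the highest member, at 13203 normalized counts, followed by SNRPN at 10595, MEST at 1649, IGF2 at 1204 and BLCAP at 1082.

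On chromosome 15, SNRPN and SNURF are paternally expressed and made from the same transcription unit. SNRPN encodes a core protein of the spliceosome, and SNURF a small protein read from the upstream part of the same transcript. SNRPN had 14564, 18798 and 15186 in the wild type and 26701, 22065 and 26014 in the knockout. Each knockout library was above each wild-type one, a 1.54-fold difference in means that missed the threshold (log2 fold change 0.63, SE 0.20, limma adjusted p = 0.0850; DESeq2 adjusted p = 0.0206). SNURF had 363, 551 and 337 in the wild type and 880, 206 and 420 in the knockout. Knockout replicates 1 and 2 were the highest and the lowest of all 6 libraries (log2 fold change 0.06, SE 0.51, limma adjusted p = 0.959). The ratio of SNRPN to SNURF was 40.2, 34.1 and 45.1 in the wild type and 30.4, 107 and 61.9 in the knockout. The ratios overlapped between genotypes (exact two-sided permutation p = 0.4, also after adjustment over the 2 ratios). How reads of the shared transcript were divided between these symbols is not given in the sources used here, so SNURF values are uncertain. UBE3A, a ubiquitin ligase used from the maternal copy in neurons, had means of 2409 ± 724 and 1621 ± 781 (SD, n = 3 each; limma adjusted p = 0.363). MKRN3, a paternally expressed zinc finger gene that restrains puberty, was not tested, with 1 to 24 reads per library.

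NAP1L5 (ENSG00000177432.7, chromosome 4, 88695915 to 88697829, minus strand), a paternally expressed nucleosome assembly protein-like gene inside HERC3, was the third called member. Its promoter is printed above. It had 319, 369 and 295 normalized counts in the wild type and 179, 175 and 137 in the knockout. The genotypes did not overlap, and the mean fell from 328 ± 38.1 to 164 ± 23.3 (SD, n = 3 each), to 50% of the wild type. The log2 fold change was -1.0 (SE 0.27) with a limma adjusted p of 0.0477, close to the threshold. edgeR gave -1.01 with an adjusted p of 0.050, just over it, and 10 of 19 alternative fits did not call the gene. Among fits without 1 library it was called only without knockout replicate 1 (adjusted p = 0.0471); the others gave 0.0983 to 0.162. Its host HERC3, on the opposite strand, did not pass (log2 fold change 0.41, SE 0.46, limma adjusted p = 0.627), nor did FAM13A, PYURF or TIGD2 beside it. Further out, SPP1, PPM1K and GPRIN3 rose (log2 fold change 2.08, 1.73 and 1.10; limma adjusted p = 0.0362, 0.00118 and 0.0159).

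**Figure D4:**
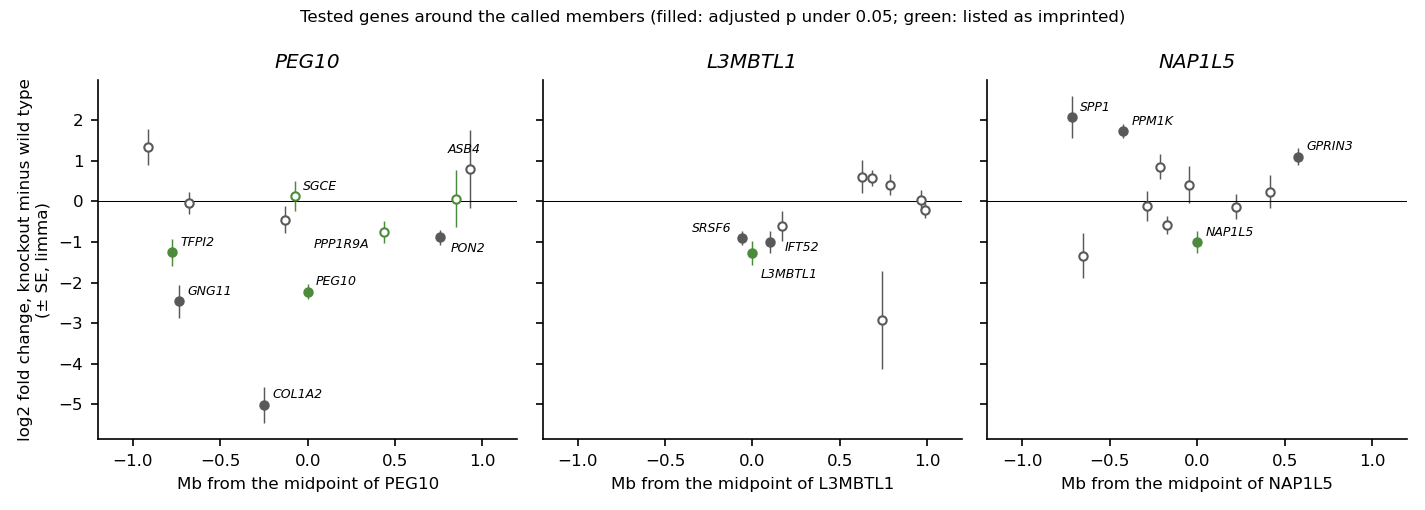
Log2 fold change, knockout minus wild type, with its SE from limma, of each tested gene within 1 Mb of PEG10, L3MBTL1 and NAP1L5, against the distance between gene midpoints in Mb; filled points have an adjusted p under 0.05 and green marks listed imprinted genes. SGCE lies beside PEG10 and near 0, SRSF6 and IFT52 lie on either side of L3MBTL1 and below 0, and the genes nearest to NAP1L5 are open.

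The remaining members outside the large clusters did not pass. ZDBF2, a paternally expressed zinc finger gene, had means of 362 ± 131 and 215 ± 107 (SD, n = 3 each; limma adjusted p = 0.308). DIRAS3, a paternally expressed small GTPase with growth-restraining activity, had 107, 103 and 157 in the wild type and 123, 39.0 and 48.9 in the knockout. Knockout replicate 1 stood with the wild type and the other 2 below it (log2 fold change -0.95, SE 0.50, limma adjusted p = 0.268). FAM50B, a paternally expressed gene on chromosome 6, had 74.0, 101 and 16.6 in the wild type and 15.3, 0 and 23.1 in the knockout. Wild-type replicate 3 lay below knockout replicate 3 (limma adjusted p = 0.206), and without knockout replicate 2 the log2 fold change of -2.81 became -1.37. ZNF597, a maternally expressed zinc finger gene, had means of 166 ± 46.9 and 179 ± 40.6 (SD, n = 3 each; limma adjusted p = 0.865). INPP5F, a phosphoinositide phosphatase with a paternally expressed isoform, had 134, 122 and 74.6 in the wild type and 864, 106 and 55.1 in the knockout. A single library, knockout replicate 1, set its positive log2 fold change of 0.68 (limma adjusted p = 0.698), which was -0.48 without that library.

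PEG3, ZIM2 and DIO3 were listed at 0 in all 6 libraries. PEG3 is a paternally expressed zinc finger factor, ZIM2 shares its start region, and DIO3 is a deiodinase that inactivates thyroid hormone. A count of 0 allows up to 3 reads, worth 1.91 to 4.53 normalized counts depending on the library, and covers counting error only. PEG3 and ZIM2 share exons in the annotation. On one side of PEG3 the nearest tested genes were ZNF835, at 18.2 ± 14 in the wild type and 10.4 ± 8.22 in the knockout, and then ZNF71, at 634 ± 80.5 and 635 ± 163 (SD, n = 3 each). On the other side they were ZNF264, at 212 ± 40.2 and 168 ± 61.5, and then AURKC, at 18.0 ± 11.4 and 8.17 ± 10.5 (SD, n = 3 each). None of these 4 was called. Of the 5 listed genes of the chromosome 14 cluster 3 had a row, DIO3, DLK1 and RTL1. DLK1, a paternally expressed Notch-like membrane protein of progenitor cells, had 116, 130 and 135 in the wild type and 123, 173 and 152 in the knockout. Its values were similar in all libraries (log2 fold change 0.22, SE 0.30, limma adjusted p = 0.702). RTL1, a retrotransposon-derived gene of the placenta and muscle, had 1 read in each of 2 wild-type libraries and 0 elsewhere.

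Spread among replicates was described by genotype. The median SD of log2 values among 3 replicates was 0.36 over the tested members in the wild type and 0.71 in the knockout, beside 0.37 and 0.42 over all genes tested. The 2 libraries that stand apart were also ranked within their genotypes for each member, however small the difference. In 8 members (33.3%) wild-type replicate 2 and knockout replicate 1 were each the highest of their genotype: IGF2, CDKN1C, SLC22A18, SGCE, SNRPN, SNURF, NNAT and NAP1L5. In 5 more (20.8%) each was the lowest: MEST, PEG10, GRB10, UBE3A and ZNF597. Over all genes tested these shares were 29.5% and 30.4%, or 59.9% together. The other 11 members (45.8%) had neither pattern, so the 2 patterns together were no more frequent in members than over all genes. In knockout replicate 1 the deviation of the 8 from their genotype mean ran from 0.04 (SLC22A18) to 1.38 (NNAT) on the log2 scale. Without wild-type replicate 2 and knockout replicate 1, 12 members were called, 4 higher and 8 lower, beside 28.9% of all genes. The 9 added to the 3 above were IGF2, SNRPN, BLCAP and SLC22A18, which were higher, and PPP1R9A, GRB10, MEST, PLAGL1 and DIRAS3, which were lower. That comparison has 2 libraries a genotype and was chosen after the values were seen.

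**Figure D5:**
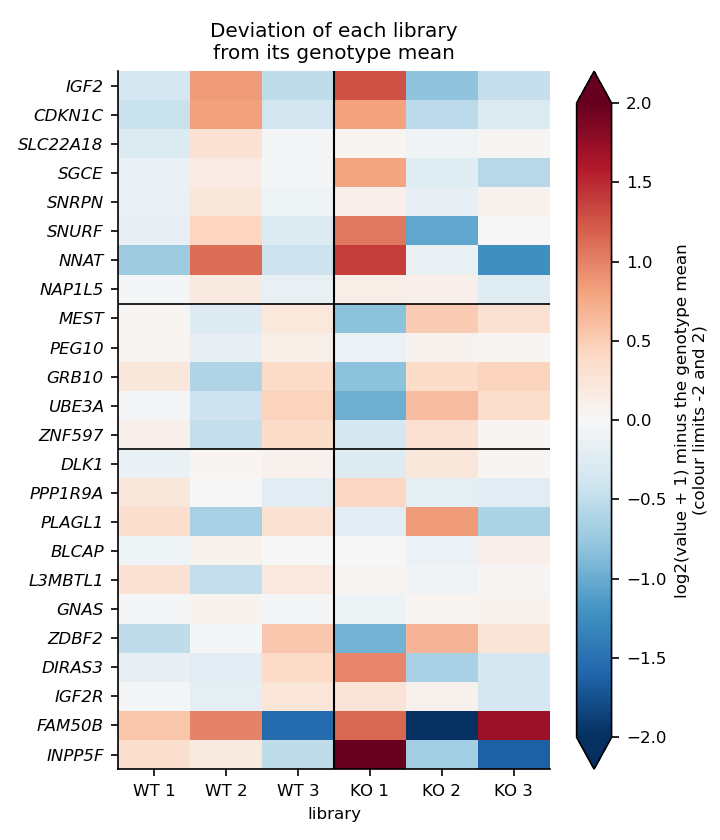
Deviation of log2(value + 1) in each library from the mean of its genotype, for the 24 tested members; red is above and blue below the mean, and lines separate members highest in both wild-type replicate 2 and knockout replicate 1, members lowest in both, and the rest. IGF2, CDKN1C, SNURF and NNAT are red in both of these libraries and GRB10, UBE3A and MEST are blue, while GNAS and BLCAP are pale throughout.

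Of 18 genes that set, keep or read imprints 15 were tested and 1 was called (6.67%, beside 12.8% of all genes). TRIM28, the corepressor that ZFP57 and ZNF445 bring to methylated imprints, fell from 8272 ± 452 to 5093 ± 517 (n = 3 each, ± SD), by 0.70 on the log2 scale (SE 0.17, limma adjusted p = 0.0373). Of the 15, 11 had negative values, with a median log2 fold change of -0.52. In 6 (40.0%) the genotypes did not overlap, beside 33.4% of all genes. All 6 were lower in the knockout, beside 17.2% of all genes lower in this way. Among these the de novo methyltransferase DNMT3B had means of 441 ± 203 and 74.7 ± 60.8 (SD, n = 3 each; limma adjusted p = 0.0835). ZNF445 had means of 445 ± 67.0 and 255 ± 90.7 (SD, n = 3 each; limma adjusted p = 0.133). DNMT1, the maintenance methyltransferase, and ZFP57 did not pass (limma adjusted p = 0.971 and 0.836).

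Of 35 other genes reported as imprinted, 25 had a row, 16 were tested and 4 were called (25.0%, beside 12.8% of all genes), all lower, where 6.79% of all genes were called lower. Besides TFPI2 these were OSBPL5, a lipid transfer protein beside the chromosome 11 cluster (318 ± 122 to 81.4 ± 28.0; limma adjusted p = 0.0214), ZNF331 (558 ± 152 to 232 ± 36.1; limma adjusted p = 0.0328) and GPR1, a chemerin receptor beside ZDBF2 (295 ± 38.1 to 82.7 ± 27.1; limma adjusted p = 0.0132), each as SD with n = 3. KCNQ1, the potassium channel gene of the chromosome 11 cluster, had means of 323 ± 33.2 and 118 ± 74.1 without overlap (SD, n = 3 each; limma adjusted p = 0.0920). The median of the 16 was 0.10, so the list held higher genes too, none of them called. This list too was chosen with earlier results of these data known.

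Markers of other cells moved with the genotypes, and their part in the members' values was not tested. Over 7 neural markers the summed value was 66.3 to 117 in wild-type libraries and 467 to 827 in knockout libraries, with 3 of 5 tested markers called higher. Over 5 smooth muscle markers it ran from 82158 to 94153 and from 490518 to 539769, with 4 of 5 called higher. At 49466 ± 3691 and 389103 ± 8357 (SD, n = 3 each), ACTA2 made up much of these sums. MYOCD went the other way, from 5636 ± 1274 to 3573 ± 234 (SD, n = 3 each), without overlap and without passing (limma adjusted p = 0.107). Over 7 fibroblast markers the sum ran from 12893 to 26523 and from 7662 to 16208, with 2 of 7 called higher and 1 lower. Over 7 endoderm and liver markers it ran from 1671 to 3009 and from 1205 to 1252. Of these 3 were tested, AFP was called lower, and FOXA2 was at 0 in all libraries. Over 5 epicardial markers the sum ran from 103 to 219 and from 912 to 1091, with 2 of 5 called higher. Endothelial sums ran from 139 to 465 and from 367 to 545 and pluripotency sums from 332 to 420 and from 479 to 494. In each of these lists 0 of 3 tested markers were called. Over all genes tested 12.8% were called, 5.97% higher and 6.79% lower.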

How the data were processed

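RNA was sequenced from 6 cardiomyocyte libraries, 3 per genotype. The labels' protocols name the Clontech Ultra Low v4 cDNA kit and NexteraXT. The submitters' processing notes name bcl2fastq 2.19, kallisto 0.44.0, DESeq2 1.28.1 and GRCh38, without their roles. The annotation and the use of strand are not given in the sources used here.

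The deposited values are a signal that the authors call normalized counts. All values (100%, tolerance 0.01 reads) were whole multiples of 1 step per library, so whole reads were recovered, and 0 columns were left unused. Depth is 22443904 to 53224112 reads. A floor of 3 reads covers counting error alone.

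The whole table was fitted with limma 3.58.1 in R 4.3.3 (log2(value + 1), mean of at least 10, lmFit, eBayes with a trend, no covariate), adjusted by Benjamini-Hochberg over 15536 genes, with a threshold of 0.05. SEs are limma's. edgeR 4.0.16 (TMM) called 1864 genes and DESeq2 1.42.0 called 3210 on the recovered reads, beside 1982 with limma. The fit was tested on simulated data. It recovered 51.2% of 86 changes of 1 on the log2 scale and 99.1% of 114 changes of 2. Of its 163 calls 6 were false. The simulation gave every gene the same dispersion and held no libraries that stand apart, unlike these data, so it does not give the recovery here. Fold changes on this scale understate low genes.

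Every member is named. Library values are given for called members, members of a shared locus and the 5 highest, and for others where single libraries set the value. Members and lists were chosen with earlier results of these data known. Positions and lengths are from GENCODE 29 by symbol. Figures used matplotlib 3.10.9. Alternatives were other pseudocounts (0.1, 10), filters (none, mean of 50), scalings, variance models, tools, a replicate block, each library left out, and, added after seeing the data, 2 libraries left out together.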

Additional observations from a re-analysis of the deposited data

How the results depend on the processing

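The number of members called was 3 and ran from 2 to 4 under other pseudocounts, filters, scalings and variance models and with edgeR. It was 7 with DESeq2, 12 without the 2 libraries that stand apart and from 1 to 4 when a single library was left out. It was 1, PEG10, without wild-type replicate 1, wild-type replicate 3, knockout replicate 2 or knockout replicate 3. With the replicate number as a block it was 1 (PEG10, adjusted p = 0.0103), L3MBTL1 and NAP1L5 having 0.10 and 0.165, and all genes called fell to 798. Same-numbered libraries correlated in their deviations at -0.23, -0.40 and 0.17. The labels do not say whether the numbers pair libraries, and these correlations cannot decide it. PEG10 was called in all 19 alternatives, L3MBTL1 in 14 and NAP1L5 in 9. Leaving out 1 library, the PEG10 to SGCE log2 ratio difference ran from -2.65 to -1.89 and that of SNRPN to SNURF from 0.13 to 1.04. Equal totals shifted the median of all genes to -0.27 and turned DLK1 (-0.061), SGCE (-0.15), SNURF (-0.22), GNAS (-0.25) and ZNF597 (-0.16) negative. Quantile normalization turned GNAS to -0.37. Leaving out 1 library changed the sign of 7 values that were not called: SNURF (-0.46 to 0.58), CDKN1C (-0.78 to 0.028), NNAT (-0.91 to 0.40), ZNF597 (-0.11 to 0.31), SGCE (-0.27 to 0.41), INPP5F (-0.48 to 1.49) and GNAS (-0.0051 to 0.081). Without the 2 libraries that stand apart SGCE was -0.19, SNURF -0.25 and INPP5F -0.39. The cause of these changes was not tested. FAM50B had no value with a mean of at least 50. For members at 0, depth allows up to 3 reads in a library.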
